A study of Mus musculus with 12 samples.

Results

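The genes described here encode the proteins of the cytosolic ribosome and their close relatives, 50 genes of the 18193 genes that a probe set of the array names singly. A gene was taken when its symbol was Rpl, Rps or Rplp followed by a digit, with the Rps6k kinases left out, and its brightest probe set over the 12 arrays stood for it. Of the 80 proteins of the cytosolic ribosome 42 were among them, 22 of the large and 20 of the small subunit. The other members were 6 paralogues (Rpl39l, Rpl22l1, Rpl7l1, Rpl3l, Rps4l and Rps27l), a pseudogene (Rps15a-ps6) and Rps19bp1, which encodes a protein that binds the protein of Rps19. A further 110 probe sets named a gene of this kind together with other genes, mostly its pseudogenes, and 27 more ribosomal proteins were named only there. Their values are given separately below.

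The tissue was white fat, taken from C57/BL6 males of 6 to 8 weeks and measured on Affymetrix arrays, with 3 arrays in each of 4 groups. The cold groups were kept at 4 °C for 1 week or for 5 weeks, after an adaptation at 18 °C for 1 to 3 weeks. The labels list the same adaptation for the control groups, and all mice had been housed at 22 °C before. For the controls of 1 week and of 5 weeks the titles say 30 °C but the source names say room temperature, so their temperature is not settled. The labels state neither the depot nor whether a group's 3 arrays are separate animals; p-values below measure only how far these arrays differ, and that spread may be technical.

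A ribosome holds 1 copy of nearly every one of its proteins, and the genes for them are transcribed together at a high level in most cells. Their messenger RNAs begin with a cytosine and a run of pyrimidines, the 5′ terminal oligopyrimidine (TOP) start, through which the kinase complex mTORC1 controls how much of them is translated. Cells that are dividing hold many ribosomes, whereas a mature white adipocyte has a thin rim of cytoplasm around its fat droplet. Fewer cells of a type and less RNA per cell cannot be told apart in such bulk samples.

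The TOP start is the sequence feature these transcripts are known for, and it was looked for in RefSeq promoters of the mouse build GRCm38.p6, of which 43 of the 50 genes had one. A C followed by 4 bases that were each C or T stood exactly at an annotated start in 8 of 43 genes (18.6%), against 3.01% of all 27025 genes with a promoter. Shown are the 15 bases before and the 15 bases from the start of these 8 genes, with the pyrimidine run that opens the transcript in capitals.
Rpl14, chr9:120571502-120571531, plus strand: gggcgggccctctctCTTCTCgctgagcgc
Rpl35, chr2:39005117-39005146, minus strand: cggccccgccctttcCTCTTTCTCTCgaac
Rpl38, chr11:114668565-114668594, plus strand: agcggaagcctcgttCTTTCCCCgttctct
Rplp2, chr7:141447636-141447665, plus strand: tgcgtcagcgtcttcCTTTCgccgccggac
Rps6, chr4:86857353-86857382, minus strand: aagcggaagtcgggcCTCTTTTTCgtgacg
Rps10, chr17:27635230-27635259, minus strand: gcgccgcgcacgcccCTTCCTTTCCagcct
Rps18, chr17:33955651-33955680, minus strand: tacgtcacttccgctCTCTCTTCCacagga
Rps27, chr3:90213634-90213663, minus strand: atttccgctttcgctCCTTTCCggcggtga

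The starts of 2 paralogues are shown as well. Neither opens with such a run at the annotated base, but neither do most ribosomal proteins, of which 8 of 37 with a promoter do. The start of Rpl22l1 holds the motif within 5 bases of the annotated base.
Rpl39l, chr16:10170213-10170242, plus strand: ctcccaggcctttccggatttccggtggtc
Rpl22l1, chr3:28805493-28805522, plus strand: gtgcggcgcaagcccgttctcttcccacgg
Within 5 bases of the annotated start, 20 of the 43 genes (46.5%) held the motif, against 21.2% of all genes. The letters CCGGAAG, searched on both strands of the 250 bases before and 50 bases after the start, were found in 20 of the 43 (46.5%), against 9.93% of all genes. A match describes the letters only, and the annotated start may not be the one used in fat.

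Most of these genes were bright, and some were dim. The mean log2 signal of 35 members exceeded 12 and that of 33 exceeded 13, with a range over the 48 tested genes of 4.40 to 15.41. Rps16 (mean 2.06) and Rpl3l (mean 3.30) did not exceed log2 4 on 3 arrays and were not tested. Rpl3l, the muscle form of Rpl3, exceeded it on 1 array, with 4.41 on cold_1wk 2, against 3.18, 3.17 and 2.89 on the control_1wk arrays. That array also had the highest mean of skeletal muscle markers, at 9.33. In the other arrays of the 1 week groups that mean was 5.17 and 5.26 (cold) and 5.21 to 5.62 (control). On the control_5wk arrays, where the muscle marker mean was 7.82 to 8.06, Rpl3l had only 3.26, 3.18 and 3.13.

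At 1 week in the cold, 34 of the 48 tested genes fell and 2 rose (limma, Benjamini-Hochberg adjusted p under 0.05), where 31.6% of all 12855 genes tested fell and 17.9% rose. Their median log2 difference, cold minus control, was -0.49, against -0.08 over all genes. Both subunits were affected, with 18 of 22 large subunit genes and 15 of 19 small subunit genes lower and none of either higher. In 36 genes all 3 cold arrays lay below all 3 control arrays, which 33.7% of all genes did. The size of a called fall ran from 16.2% to 71.6%, with a median of 33.0%.

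At 5 weeks 33 of the 48 fell and 2 rose, where 21.2% of all genes fell and 15% rose, and the median was -0.39, against -0.03 over all genes. Of the large subunit genes 17 of 22 and of the small subunit genes 14 of 19 were lower, and Rpl27a of the large subunit was higher. The cold arrays lay below the control arrays in 38 genes, which 30.7% of all genes did. Called falls ran from 15.8% to 55.2%, with a median of 29.6%. At both times 28 of the 48 were lower, which 12.5% of all genes were, and 6 were called at neither time.

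**Figure D1:**
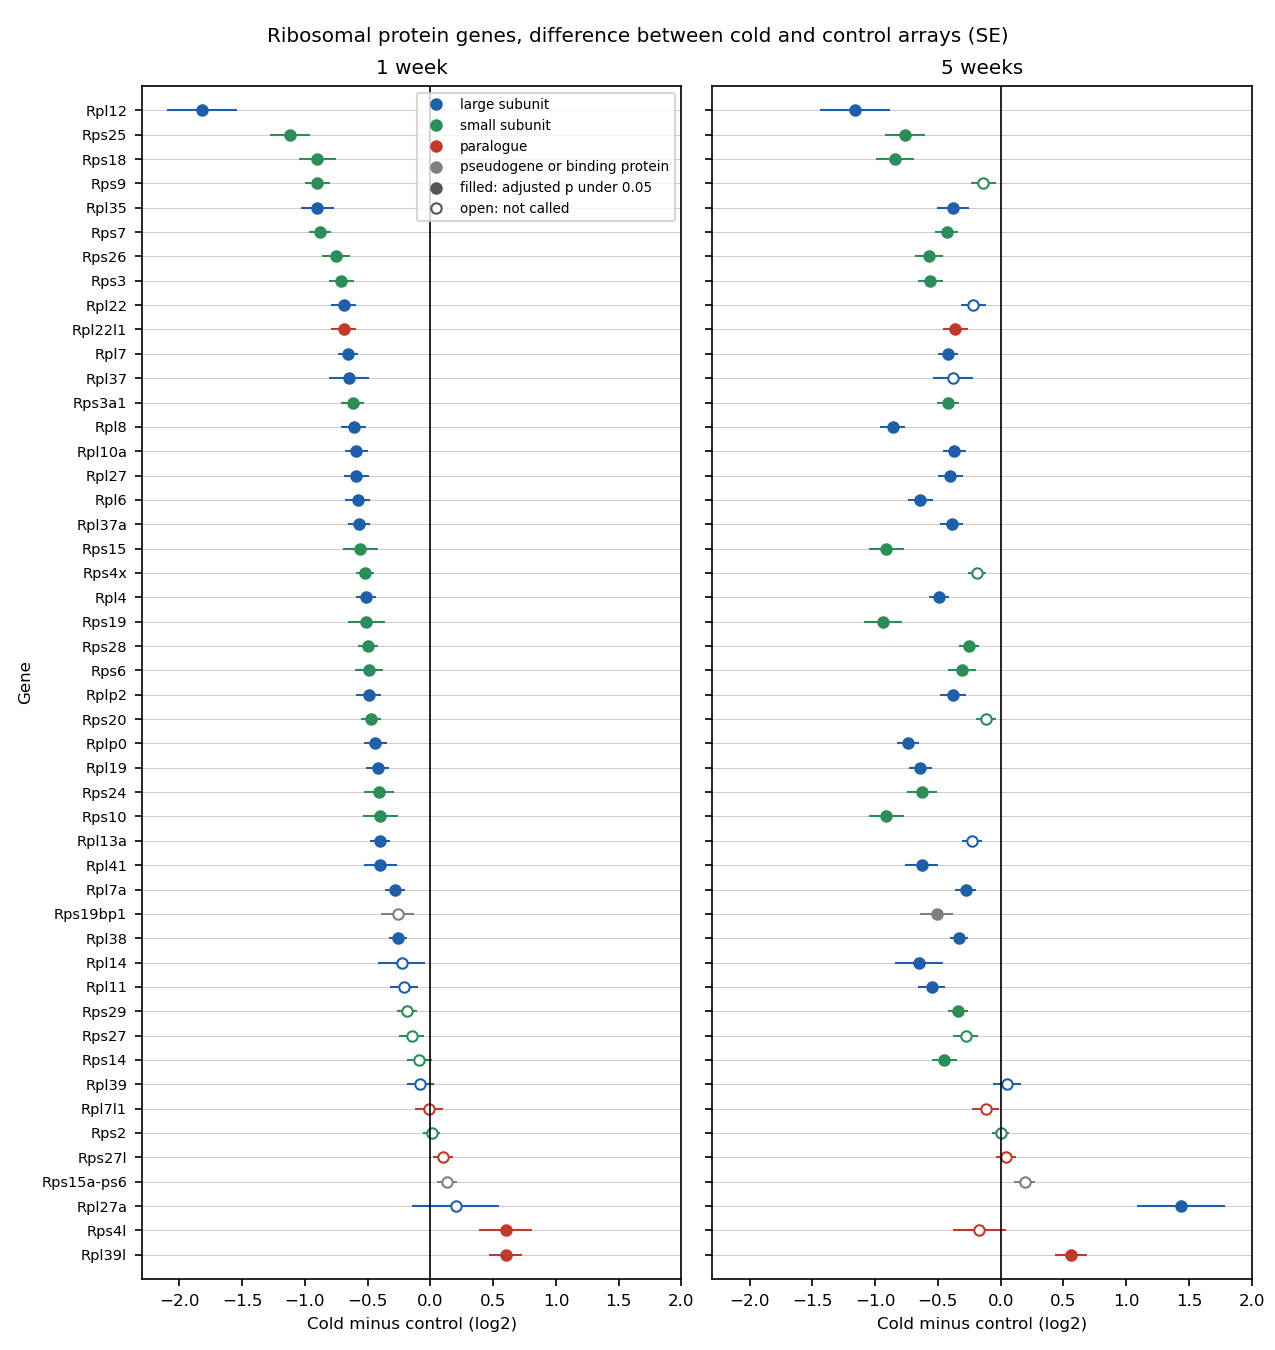
Difference between cold and control arrays (log2, x axis, bars are SE) for the 48 tested genes at 1 week (left) and 5 weeks (right), ordered by the 1 week value. Filled points have an adjusted p under 0.05: 34 lie left of 0 at 1 week and 33 at 5 weeks, and the points at or right of 0 are mostly paralogues and dim genes.

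The mean signal of the 41 tested ribosomal proteins proper was 12.39, 12.57 and 12.33 on the cold_1wk arrays, against 12.86, 12.97 and 13.02 on the control_1wk arrays. It was 12.52, 12.52 and 12.47 on the cold_5wk arrays, against 12.91, 12.94 and 12.96 on the control_5wk arrays. All 6 cold arrays thus lay below all 6 control arrays. The shift of this mean was -0.52 at 1 week and -0.43 at 5 weeks. The separation was not particular to these genes, since the array medians of all genes tested were apart as well. Those medians were 7.70 to 7.84 on the cold_1wk arrays, against 7.97 to 7.98 on the control_1wk arrays. They were 7.80 to 7.84 on the cold_5wk arrays, against 7.96 to 7.98 on the control_5wk arrays.

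Rplp0, which anchors the stalk, the site where elongation factors bind, to the large subunit, had 14.34, 14.42 and 14.21 on the cold_1wk arrays, against 14.71, 14.77 and 14.81 on the control_1wk arrays, and 14.11, 14.19 and 13.92 on the cold_5wk arrays, against 14.79, 14.79 and 14.86 on the control_5wk arrays. The groups did not overlap at either time. Its fall was 26.2% at 1 week (log2 -0.44, SE 0.09, n = 3 arrays per group, limma adjusted p = 0.00227) and 40.1% at 5 weeks (log2 -0.74, SE 0.09, limma adjusted p = 0.000133). With arrays centred on their median the 1 week value of Rplp0 was -0.22 (limma adjusted p = 0.0576). Rplp2, one of the 2 acidic proteins that Rplp0 carries, fell by 0.49 at 1 week and 0.38 at 5 weeks (SE 0.10 each); without cold_5wk 3 the 5 week value was -0.29 (limma adjusted p = 0.0511).

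Rpl12, at the base of the stalk, gave the largest fall at both times, but on a dim probe set. It had 5.80, 6.21 and 4.81 on the cold_1wk arrays, against 7.26, 7.62 and 7.40 on the control_1wk arrays, and 5.88, 5.90 and 6.17 on the cold_5wk arrays, against 6.92, 7.36 and 7.15 on the control_5wk arrays. The groups did not overlap, and the differences were -1.82 (SE 0.28, limma adjusted p = 0.000356) and -1.16 (SE 0.28, limma adjusted p = 0.00788). The 2 bright probe sets that name Rpl12 with pseudogenes (mean signal 14.18 and 13.29) gave smaller differences, -0.55 and -0.62 at 1 week and -0.27 and -0.78 at 5 weeks.

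Rpl8, which lies near the peptidyl transferase centre, had 12.96, 13.26 and 12.99 on the cold_1wk arrays, against 13.66, 13.69 and 13.70 on the control_1wk arrays, and 12.82, 12.85 and 12.56 on the cold_5wk arrays, against 13.64, 13.60 and 13.58 on the control_5wk arrays. No cold array reached a control array. The falls were 34.6% (log2 -0.61, SE 0.10, limma adjusted p = 0.000597) and 45.0% (log2 -0.86, SE 0.10, limma adjusted p = 0.000104). Rpl4, which lines the tunnel through which the new chain leaves, fell by 0.51 at 1 week and 0.49 at 5 weeks (SE 0.08 each).

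Rpl35, a protein at the tunnel exit that carries the long pyrimidine run shown above, had 13.83, 14.00 and 13.57 on the cold_1wk arrays, against 14.50, 14.73 and 14.87 on the control_1wk arrays. At 5 weeks the cold arrays had 14.27, 14.19 and 14.43, against 14.62, 14.65 and 14.75 on the control arrays. The groups were apart at both times and closer at 5 weeks. The fall was 46.5% at 1 week (log2 -0.90, SE 0.13, limma adjusted p = 0.000203) and 23.0% at 5 weeks (log2 -0.38, SE 0.13, limma adjusted p = 0.0393). Its 4 other bright probe sets lay between -0.92 and -0.67 at 1 week and between -0.61 and -0.31 at 5 weeks, while a dim one (mean signal 4.34) was called higher at 5 weeks (0.66, SE 0.23).

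Other large subunit genes also fell at both times. Rpl7 fell by 0.66 and 0.42 at 1 and 5 weeks, Rpl6 by 0.58 and 0.64, Rpl19 by 0.42 and 0.64, and Rpl41, the smallest of the proteins, by 0.40 and 0.63. The 1 week call of Rpl41 was lost without control_1wk 3 (-0.33), cold_1wk 1 (-0.38) or cold_1wk 3 (-0.30), and its 5 week call without probe sets ending in _x_at or _s_at (-0.36). Rpl13a, often used as a reference gene, fell by 0.40 at 1 week (SE 0.08, limma adjusted p = 0.0022) and gave -0.23 at 5 weeks (SE 0.08, limma adjusted p = 0.0534). The 3 other probe sets of Rpl13a were called lower at 5 weeks (-0.57, -0.36 and -0.85), and the mean of all its probe sets gave -0.50 (limma adjusted p = 0.000968). Rpl38, which in the mouse embryo is needed to translate a subset of homeobox transcripts, had the smallest called fall at 1 week, 16.2%. Rpl11, a partner of the 5S ribosomal RNA that can bind and restrain Mdm2, was called only at 5 weeks, when it fell by 0.55 (SE 0.11, limma adjusted p = 0.00235), against -0.21 (SE 0.11, limma adjusted p = 0.127) at 1 week. The difference between those 2 cold effects was not called.

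Rpl39 was called at neither time, but its probe set was dim beside those of most ribosomal proteins (mean signal 8.19). This small protein of the exit tunnel had 8.15, 8.13 and 8.20 on the cold_1wk arrays, against 8.15, 8.28 and 8.29 on the control_1wk arrays, and 8.43, 8.13 and 8.06 on the cold_5wk arrays, against 8.09, 8.10 and 8.29 on the control_5wk arrays. The groups overlapped at both times, with differences of -0.08 and 0.05 (SE 0.11 each).

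Rps18, a protein of the head of the small subunit, had 13.20, 13.47 and 12.98 on the cold_1wk arrays, against 13.96, 14.16 and 14.25 on the control_1wk arrays, and 13.44, 13.51 and 13.06 on the cold_5wk arrays, against 14.13, 14.16 and 14.23 on the control_5wk arrays. The groups did not overlap. The falls were 46.5% (log2 -0.90, SE 0.15, limma adjusted p = 0.000483) and 44.1% (log2 -0.84, SE 0.15, limma adjusted p = 0.00117). Of its other bright probe sets, 1 gave -0.56 at 1 week and -0.92 at 5 weeks, both called lower. The other (mean signal 13.26) fell by 0.78 at 1 week but gave -0.12 at 5 weeks (limma over all probe sets, adjusted p = 0.54), and its cold effect differed between the times by 0.66 (adjusted p = 0.0367 in the same limma fit). Rps3, which guards the channel where the messenger RNA enters, fell by 0.71 at 1 week and 0.56 at 5 weeks (SE 0.10 each).

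Rps19, whose loss of 1 copy causes Diamond-Blackfan anaemia in humans, had 13.20, 13.49 and 13.17 on the cold_1wk arrays, against 13.71, 13.81 and 13.87 on the control_1wk arrays, and 13.24, 13.10 and 12.60 on the cold_5wk arrays, against 13.90, 13.94 and 13.93 on the control_5wk arrays. Its falls were 29.9% (log2 -0.51, SE 0.15, limma adjusted p = 0.0143) and 48.0% (log2 -0.94, SE 0.15, limma adjusted p = 0.000631). The groups stood apart, with cold_5wk 3 the lowest of all arrays. Without cold_1wk 3 the 1 week value was -0.45 (limma adjusted p = 0.0508). In Rps10 and Rps15 cold_5wk 3 was the lowest array as well. At 5 weeks Rps10 had 13.61, 13.72 and 13.11 in the cold, against 14.38, 14.42 and 14.38 in the controls (log2 -0.91, SE 0.14). Rps15 had 12.96, 12.91 and 12.41 in the cold, against 13.66, 13.68 and 13.67 in the controls (log2 -0.91, SE 0.14). At 1 week Rps10 fell by 0.40 and Rps15 by 0.56. The Actb 3′ minus 5′ signal, given below, was highest on cold_5wk 3. The smaller 5 week falls of Rps19, Rps10 and Rps15 with that signal as a covariate are given there too.

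Rps26 fell by 0.75 and 0.57 at 1 and 5 weeks (SE 0.11 each). Rps25 was measured singly only by a dim probe set, which gave -1.12 (SE 0.16) and -0.76 (SE 0.16), against -0.61 and -0.62 on a bright one that names it with pseudogenes. Rps6, the protein that the S6 kinases phosphorylate below mTORC1, had 7.46, 7.64 and 7.50 on the cold_1wk arrays, against 7.87, 8.15 and 8.06 on the control_1wk arrays, and 7.57, 7.55 and 7.64 on the cold_5wk arrays, against 8.03, 7.71 and 7.95 on the control_5wk arrays. The groups did not overlap. On this dim probe set (mean signal 7.76) Rps6 fell by 0.49 at 1 week (SE 0.11, limma adjusted p = 0.00259) and 0.31 at 5 weeks (SE 0.11, limma adjusted p = 0.0384). The 5 week call was lost without any one of cold_5wk 1, 2 or 3 or control_5wk 1 or 3 (-0.24 to -0.34), with the replicate block (limma adjusted p = 0.0601) and with quantile normalization (-0.16). Rps27, also on a dim probe set (mean signal 6.61), gave -0.15 and -0.28 (SE 0.10 each, limma adjusted p = 0.229 and adjusted p = 0.0513).

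Rps2 stood out among the bright genes as level on its own probe set. It had 13.13, 13.13 and 13.15 on the cold_1wk arrays, against 13.19, 13.06 and 13.14 on the control_1wk arrays, and 13.18, 13.02 and 13.13 on the cold_5wk arrays, against 13.09, 13.09 and 13.14 on the control_5wk arrays. The groups overlapped, and the differences were 0.01 and 0.00 (SE 0.07 each; 95% intervals within 0.17 of 0). That probe set ends in _x_at, the manufacturer's mark for probes that may also bind other transcripts. The 2 bright probe sets that name Rps2 with 2 pseudogenes gave 0.11 and -0.01 at 1 week, not called, and -0.69 and -0.45 at 5 weeks, both called lower (limma over all probe sets, adjusted p = 0.00236 and adjusted p = 0.00333). With arrays centred on their median Rps2 was called higher at 1 week.

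**Figure D2:**
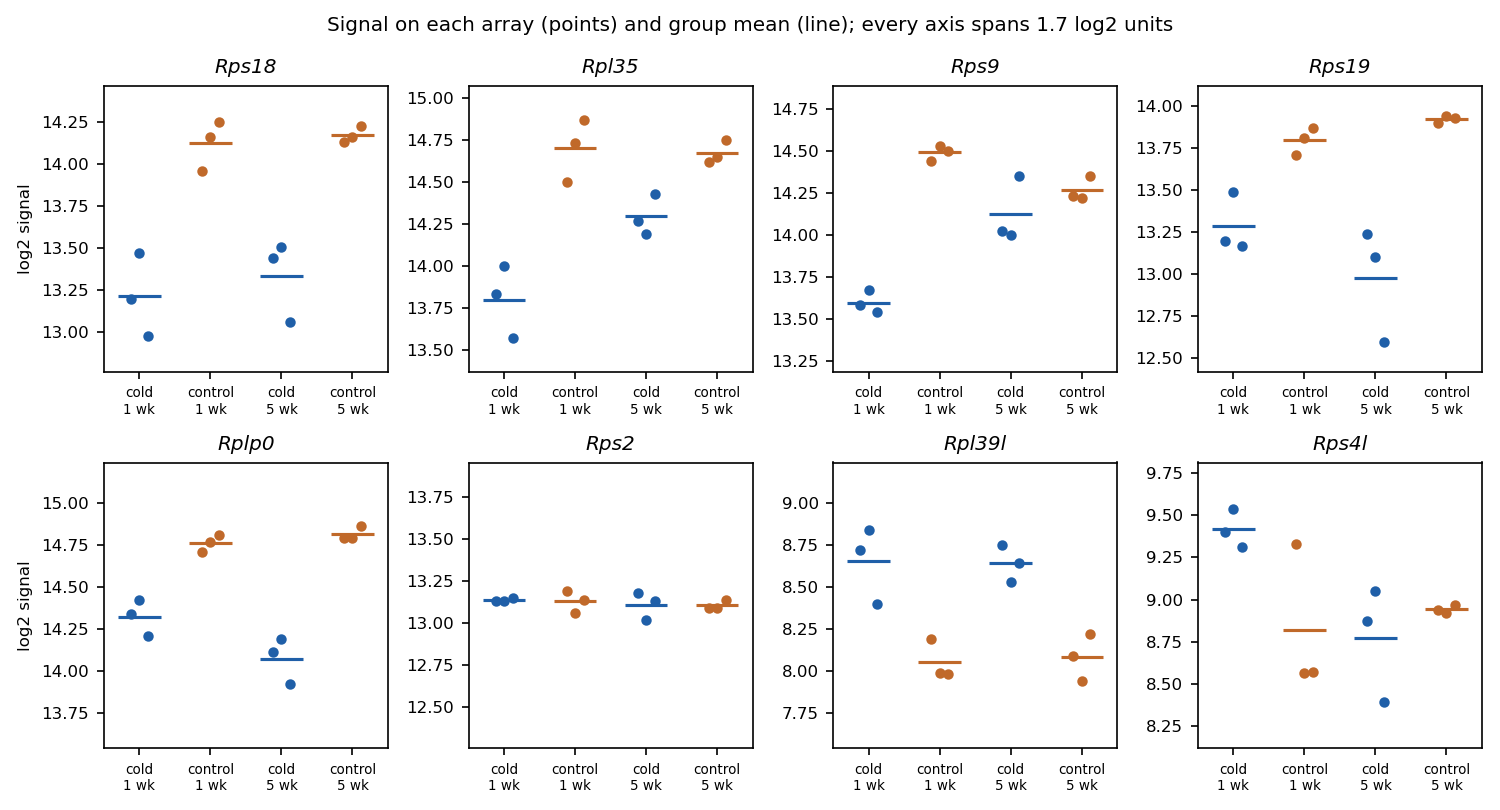
Log2 signal (y axis) of 8 genes on each array, with cold (blue) left of control (orange) at 1 week and at 5 weeks, and lines for the group means. Rps18, Rpl35, Rps19 and Rplp0 lie lower in the cold at both times, Rps9 at 1 week, Rps2 is level, and Rpl39l lies higher at both times.

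The paralogues did not move as one group, with 2 of 5 tested higher and 1 lower at 1 week, and 1 higher and 1 lower at 5 weeks. Rpl39l, a relative of Rpl39 that is best known from male germ cells, had 8.72, 8.84 and 8.40 on the cold_1wk arrays, against 8.19, 7.99 and 7.98 on the control_1wk arrays. It had 8.75, 8.53 and 8.64 on the cold_5wk arrays, against 8.09, 7.94 and 8.22 on the control_5wk arrays. Each cold array exceeded each control array. The rise was 51.8% at 1 week (log2 0.60, SE 0.13, limma adjusted p = 0.00229) and 47.1% at 5 weeks (log2 0.56, SE 0.13, limma adjusted p = 0.00537). With the Gapdh covariate described below the 1 week value was 0.56 (limma adjusted p = 0.0525).

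Rps4l, a relative of the X-linked Rps4x, had 9.40, 9.54 and 9.31 on the cold_1wk arrays, against 9.33, 8.56 and 8.57 on the control_1wk arrays. The groups overlapped, because control_1wk 1 lay among the cold arrays. The difference was 0.60 (SE 0.21, limma adjusted p = 0.0319), and -0.02 once the 3′ minus 5′ signal of Gapdh entered the fit as a covariate. The call was also lost without control_1wk 2 or 3 (0.47 each), cold_1wk 1 (0.61) or cold_1wk 2 (0.54). At 5 weeks the difference was -0.17 (SE 0.21, limma adjusted p = 0.548).

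Rpl22l1, which the protein of Rpl22 holds down in mouse cells, fell with Rpl22 at 1 week. It had 12.63, 12.79 and 12.52 on the cold_1wk arrays, against 13.22, 13.30 and 13.49 on the control_1wk arrays, and 13.00, 12.91 and 12.93 on the cold_5wk arrays, against 13.27, 13.26 and 13.41 on the control_5wk arrays. The groups did not overlap, and the differences were -0.69 (SE 0.10, limma adjusted p = 0.00023) and -0.36 (SE 0.10, limma adjusted p = 0.0142), the second -0.32 without control_5wk 3 (limma adjusted p = 0.0574). Rps27l, a target of p53, gave 0.10 and 0.04 (SE 0.08 each). Rpl7l1 gave -0.01 and -0.12 (SE 0.11 each) on its brightest probe set, while its next brightest was called higher at 1 week (0.66, SE 0.16) and lower at 5 weeks (-0.65, SE 0.16).

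Rpl27a was called higher at 5 weeks on a dim probe set. It had 6.63, 6.87 and 8.30 on the cold_5wk arrays, against 5.72, 5.51 and 6.25 on the control_5wk arrays. All cold arrays lay above the controls, with cold_5wk 3 far above the others. The difference was 1.44 (SE 0.35, limma adjusted p = 0.00857), 0.92 without cold_5wk 3, and -0.18 with the Actb covariate described below (limma adjusted p = 0.871). A bright probe set that names Rpl27a with 4 pseudogenes (mean signal 14.03) gave -0.59 at 5 weeks (limma over all probe sets, adjusted p = 0.000957) and -0.43 at 1 week.

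Of the members that are no ribosomal proteins, Rps19bp1 gave -0.26 at 1 week (SE 0.13, limma adjusted p = 0.129) and fell by 0.51 at 5 weeks (SE 0.13, limma adjusted p = 0.0125). Rps15a-ps6 gave 0.13 and 0.19 (SE 0.08 each), near the lowest signal that was tested.

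The probe sets that the choice of the brightest one left aside were counted as well. Fitted over all probe sets, of which 27.2% were lower at 1 week and 18.5% at 5 weeks, the 49 other probe sets of the members over the filter had 35 lower and 2 higher at 1 week, and 30 lower and 1 higher at 5 weeks. Their medians were -0.51 and -0.43. Of 102 probe sets that name several genes, 89 were lower and none higher at 1 week (median -0.55), and 63 were lower and 1 higher at 5 weeks (median -0.34). Examples are Rpl3, with -0.55 and -0.54 on its bright probe set, Rplp1, with -0.45 and -0.77, and Rpl5, with -0.41 and -0.24 on its bright probe set and 0.60 at 5 weeks on a dimmer one, which was the one called higher. Probe sets that share transcripts are not independent of each other.

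**Figure D3:**
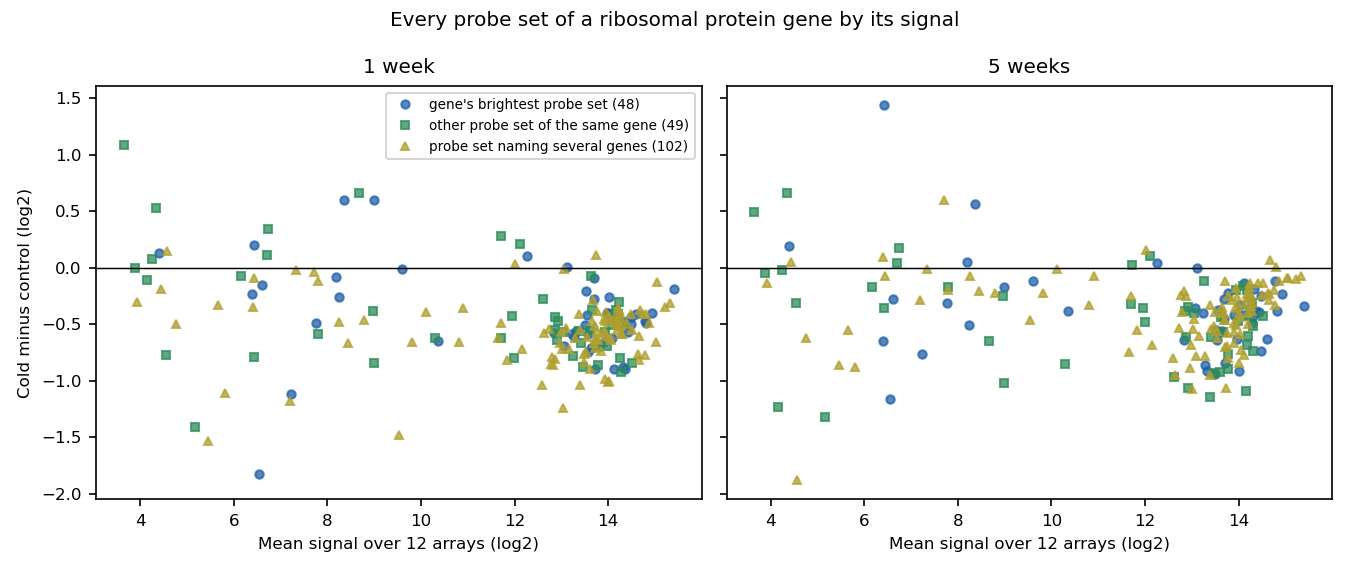
Difference between cold and control (log2, y axis) against mean signal over the 12 arrays (log2, x axis) for every probe set over the filter, at 1 week (left) and 5 weeks (right): 48 brightest probe sets, 49 others of the same genes and 102 that name several genes. Those over log2 12 lie mostly between 0 and -1, and the positive values are mostly on dim probe sets.

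The fall was set beside that of other genes of similar signal. Among the 33 ribosomal proteins with a mean over log2 12, 29 were lower and none higher at 1 week, and 27 were lower and none higher at 5 weeks. Among the 455 other genes over log2 12, 167 were lower and 168 higher at 1 week, and 130 were lower and 167 higher at 5 weeks. The medians of these other genes were -0.03 and 0.04, against -0.51 and -0.42 for the ribosomal proteins. The ribosomal proteins of the mitochondrion, which are other genes with their own transcription program, moved the opposite way. Of 76 tested, 65 rose and none fell at 1 week (median 0.63), where 17.9% of all genes rose. At 5 weeks 36 rose and 4 fell (median 0.26), where 15% of all genes rose.

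**Figure D4:**
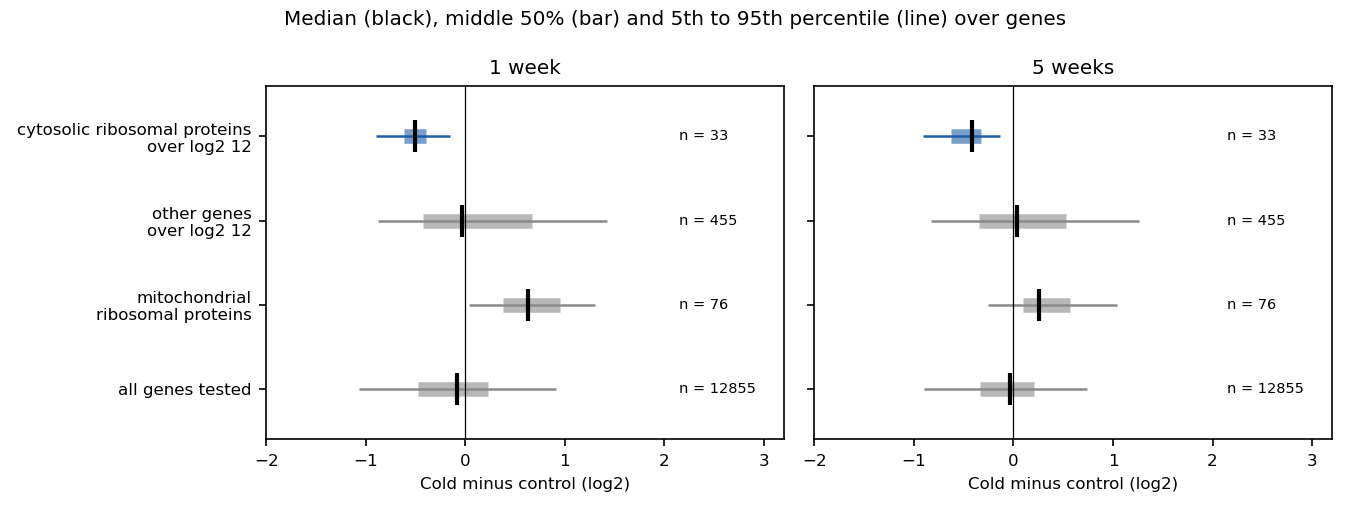
Difference between cold and control (log2, x axis) at 1 week (left) and 5 weeks (right) for 33 bright cytosolic ribosomal proteins, 455 other bright genes, 76 mitochondrial ribosomal proteins and all 12855 genes tested. Black ticks are medians, bars run between the quartiles and lines leave out the genes in each tail; the cytosolic medians are -0.51 and -0.42 and the mitochondrial ones 0.63 and 0.26.

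The 2 cold effects were compared with each other, with 5 weeks minus 1 week as the direction. Of the 48 members 4 were called higher and none lower (limma adjusted p under 0.05; 9 higher and 5 lower at an unadjusted p under 0.05), where 11.5% of all genes were higher and 8.38% lower. The 4 were Rps9, Rpl22, Rps7 and Rps4x, each lower by less at 5 weeks on its brightest probe set. Rps9 had 14.02, 14.00 and 14.35 on the cold_5wk arrays, against 14.23, 14.22 and 14.35 on the control_5wk arrays, and 13.58, 13.67 and 13.54 on the cold_1wk arrays, against 14.44, 14.53 and 14.50 on the control_1wk arrays. The groups were apart at 1 week and overlapped at 5 weeks.

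For Rps9 the cold effect was -0.14 at 5 weeks (SE 0.10, limma adjusted p = 0.288), against -0.90 at 1 week (SE 0.10, limma adjusted p = 4.59e-05). Its second bright probe set ran the other way, with -1.06 at 5 weeks (SE 0.14), against -0.47 at 1 week (SE 0.14), so the order of the 2 times for this gene depends on the probe set. Rpl22, an RNA-binding protein of the large subunit, gave -0.22 at 5 weeks, against -0.69 at 1 week (SE 0.10 each). Its other probe sets were called lower at 5 weeks (-0.35 and -1.02, limma over all probe sets). The mean of all probe sets of Rpl22 gave -0.53 at 5 weeks (limma adjusted p = 0.00161). Rps7, which like Rpl11 can bind Mdm2, gave -0.43, against -0.88 (SE 0.09 each), and Rps4x gave -0.19, against -0.52 (SE 0.07 each). The count of 4 was 1 without control_1wk 2 or 3, cold_1wk 1 or 3, cold_5wk 3 or any one control_5wk array, 2 without cold_5wk 2, and 6 without control_1wk 1 or cold_1wk 2. The calls of Rpl22, Rps7 and Rps4x were lost in the cases with a count of 1 or 2. The call of Rps4x held only without cold_1wk 2 among the 12 arrays left out in turn: it was also lost without control_1wk 1 (0.33, limma adjusted p = 0.0504) or cold_5wk 1 (0.34, limma adjusted p = 0.0622), with the replicate block (0.32, limma adjusted p = 0.0688), with arrays centred on the median (0.26, limma adjusted p = 0.0851) and with the muscle covariate (0.46, limma adjusted p = 0.0716). All 4 calls were lost with the Gapdh or the Actb covariate or with control_5wk averaged, and those of Rps9 and Rpl22 with the mean of all probe sets (0.08 and 0.19) or without probe sets ending in _x_at or _s_at (0.09 and 0.29). A dim second probe set of Rps4x (mean signal 3.65) was called higher at 1 week (1.08, SE 0.19).

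Within the cold, 10 members were higher and 3 lower at 5 weeks than at 1 week, where 15.4% of all genes were higher and 12% lower. Rps9 (0.53), Rps20 (0.52), Rpl37 (0.51) and Rpl35 (0.50) were the most raised, and Rps4l fell by 0.64, Rpl11 by 0.40 and Rpl8 by 0.32. Several of these calls rested on the probe set or on 1 array. Without probe sets ending in _x_at or _s_at Rps20 gave 0.17 (limma adjusted p = 0.559), Rps9 0.25 and Rpl35 -0.04, and with the mean of all probe sets Rps9 gave 0.06 (limma adjusted p = 0.812). Rpl37 was not called without cold_1wk 1 (0.55) or 3 (0.37), or without cold_5wk 1 (0.41) or 2 (0.47), and Rpl35 was not called without cold_1wk 3 (0.38) or cold_5wk 3 (0.43). Without cold_5wk 3 the count was 7 higher and none lower, with Rpl11 at -0.27 and Rpl8 at -0.23. Rps4l was not called without any one of the 3 cold_1wk arrays or cold_5wk 1 or 3 (-0.46 to -0.70). Within the controls none of the 48 was called (limma; 2 higher and 1 lower at an unadjusted p under 0.05), where 1.28% of all genes were higher and 1.27% lower.

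The genes around the ribosome were counted in lists from textbook knowledge. The counts here and below stand beside the shares over all genes tested. Of all 12855 genes 31.6% fell and 17.9% rose at 1 week. At 5 weeks 21.2% fell and 15% rose. Of 2 tested ribosomal proteins whose symbols lie outside the naming rule, both fell at both times: Fau, the precursor of a small subunit protein, by 0.43 and 1.27 at 1 and 5 weeks (SE 0.16 each), and Rpsa, a small subunit protein also known as a laminin receptor, by 0.67 and 0.43 (SE 0.10 each). Of 20 transcripts in a list of those known for a TOP start, 17 fell and none rose at 1 week (median -0.52), and 12 fell and none rose at 5 weeks (median -0.44). They include Npm1, a nucleolar chaperone of ribosome assembly, which fell by 1.29 and 0.45 (SE 0.12 each), and Nap1l1, a histone chaperone, which fell by 0.93 and 0.61 (SE 0.08 each). The lists can share genes, so their counts are not independent of each other. The lowest 5 week value of the TOP list, -1.27, equals that of Fau. Its lowest 1 week value, that of Npm1, equals the lowest of the assembly factors below. Of the 8 ribosomal proteins with the TOP start shown above 6 fell at 1 week, against 24 of the 28 others with a promoter, and 7 of 8 fell at 5 weeks, against 20 of 28; whether the shares differ was not tested.

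Of 58 ribosome assembly factors 27 fell and 1 rose at 1 week, and 18 fell and 4 rose at 5 weeks (medians -0.29 and -0.11). The shares lower were 46.55% and 31.03%, against 31.6% and 21.2% of all genes. Fbl, the methyltransferase of the nucleolus, had 9.92, 10.10 and 9.93 on the cold_1wk arrays, against 10.58, 10.71 and 10.85 on the control_1wk arrays, and 9.53, 9.50 and 9.48 on the cold_5wk arrays, against 10.64, 10.74 and 10.78 on the control_5wk arrays. The groups were well apart, and it fell by 0.73 and 1.22 (SE 0.09 each). Ddx21, a helicase of the nucleolus, fell by 0.95 at 1 week (SE 0.10) and gave -0.11 at 5 weeks (SE 0.10, limma adjusted p = 0.407). Imp3, a protein of small subunit assembly, gave -0.09 at 1 week (SE 0.12, limma adjusted p = 0.552) and fell by 0.90 at 5 weeks (SE 0.12).

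Of 8 elongation factors and their regulators 3 fell and 1 rose at 1 week, and 7 fell and none rose at 5 weeks. The share lower at 1 week, 37.5%, was near the 31.6% of all genes. At 5 weeks it was 87.5%, against 21.2%. Eef1d fell by 0.69 and 1.09 (SE 0.10 each) and Eef1b2 by 0.83 and 0.54 (SE 0.11 each), both exchange factors of elongation factor 1. Eef2k, the kinase that switches elongation factor 2 off, fell by 0.36 and 0.96 (SE 0.11 each). Of 32 initiation factors 15 fell and 1 rose at 1 week, and 10 fell and 1 rose at 5 weeks. The shares lower were 46.88% and 31.25%, against 31.6% and 21.2% of all genes. Eif3f, a subunit of initiation factor 3, fell by 0.53 and 0.52 (SE 0.08 each), its partner Eif3e fell by 0.76 at 1 week (SE 0.10) and gave -0.27 at 5 weeks (SE 0.10, limma adjusted p = 0.0662), and the helicase Eif4a2 fell by 0.33 and 0.77 (SE 0.12 each).

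Lists further from the ribosome moved in both directions or little. The share lower among tRNA synthetases was 27.78% at 1 week and 38.89% at 5 weeks. In the mTORC1 list it was 24% and 28%, against 31.6% and 21.2% of all genes. Of 18 cytosolic tRNA synthetases 5 rose and 5 fell at 1 week, and 3 rose and 7 fell at 5 weeks; Gars rose by 0.51 and 0.49, and Rars fell by 0.61 and 0.52 (SE 0.09 each). Of 25 genes of mTORC1 and its translation targets 9 rose and 6 fell at 1 week, and 2 rose and 7 fell at 5 weeks. The list medians were 0.13 and -0.04, and the lowest values were -1.05 and -1.03. Deptor had the highest value of the list at 1 week and Mtor at 5 weeks. Mtor, the kinase itself, had 10.28, 10.23 and 10.31 on the cold_1wk arrays, against 9.36, 9.40 and 9.18 on the control_1wk arrays, and 10.30, 10.22 and 10.30 on the cold_5wk arrays, against 8.95, 9.16 and 9.05 on the control_5wk arrays. Every cold array was higher, and the rises were 0.96 and 1.22 (SE 0.09 each, limma adjusted p = 1.35e-05 and adjusted p = 3.6e-06). Deptor, an inhibitor that binds mTOR, rose by 1.38 and 0.92 (SE 0.17 each).

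Some p53 targets were looked at because free ribosomal proteins can stabilise p53. Of 9 tested, 2 rose and 5 fell at 1 week, and none rose and 5 fell at 5 weeks. The values ran from -0.94 to 1.33 at 1 week and from -1.3 to 0.55 at 5 weeks. The genes named next are among those that fell. Gadd45a, a stress gene of growth arrest, fell by 0.51 and 1.30 (SE 0.13 each), Trp53inp1 by 0.94 and 0.54 (SE 0.13 each), and Sesn1, an inhibitor of mTORC1, by 0.81 at 1 week, with -0.19 at 5 weeks (SE 0.11 each).

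Markers of other cells of the tissue moved alongside. The mean of 22 tested T and B lymphocyte markers was 8.40 to 8.81 on the cold_1wk arrays, against 9.10 to 9.68 on the control_1wk arrays, and 8.53 to 8.61 on the cold_5wk arrays, against 9.43 to 9.53 on the control_5wk arrays, and 19 of the 22 fell at each time. For 22 macrophage markers the mean was 9.09 to 9.28 on the cold_1wk arrays, against 9.71 to 9.79 on the control_1wk arrays, and 9.06 to 9.26 on the cold_5wk arrays, against 9.85 to 9.89 on the control_5wk arrays, with 15 lower and 1 higher at 1 week and 16 lower at 5 weeks. For 11 fibroblast markers it was 11.00 to 11.18 on the cold_1wk arrays, against 11.69 to 11.90 on the control_1wk arrays, and 10.91 to 11.05 on the cold_5wk arrays, against 11.42 to 11.60 on the control_5wk arrays, with 10 lower at 1 week and 9 at 5 weeks. In each of these lists, as in the ribosomal proteins and in the median of all genes tested, the cold arrays lay below the control arrays. The part of these cells in the fall was not tested.

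Of the genes with the smallest adjusted p in these lists (limma), Cd4 of T cells fell by 0.90 and 1.31 at 1 and 5 weeks, Laptm5 of blood cells by 1.00 and 0.91 and Col6a3 of fibroblasts by 0.80 and 0.85. The 14 adipocyte markers had a mean of 12.42 to 13.13 over the 12 arrays, and 5 rose and 3 fell at 1 week, and 2 rose and 2 fell at 5 weeks; Gpd1, an enzyme of glycerol phosphate synthesis, rose by 1.78 and 1.00. All 12 brown and beige adipocyte markers rose at both times, Fabp3 by 5.76 and 5.37. Endothelial markers were split, with 3 higher and 1 lower of 12 at 1 week and 1 higher and 3 lower at 5 weeks. Of 17 skeletal muscle markers 2 rose at 1 week and 9 fell at 5 weeks; the mean was 4.88 to 5.06 on the cold_5wk arrays, against 7.82 to 8.06 on the control_5wk arrays.

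**Figure D5:**
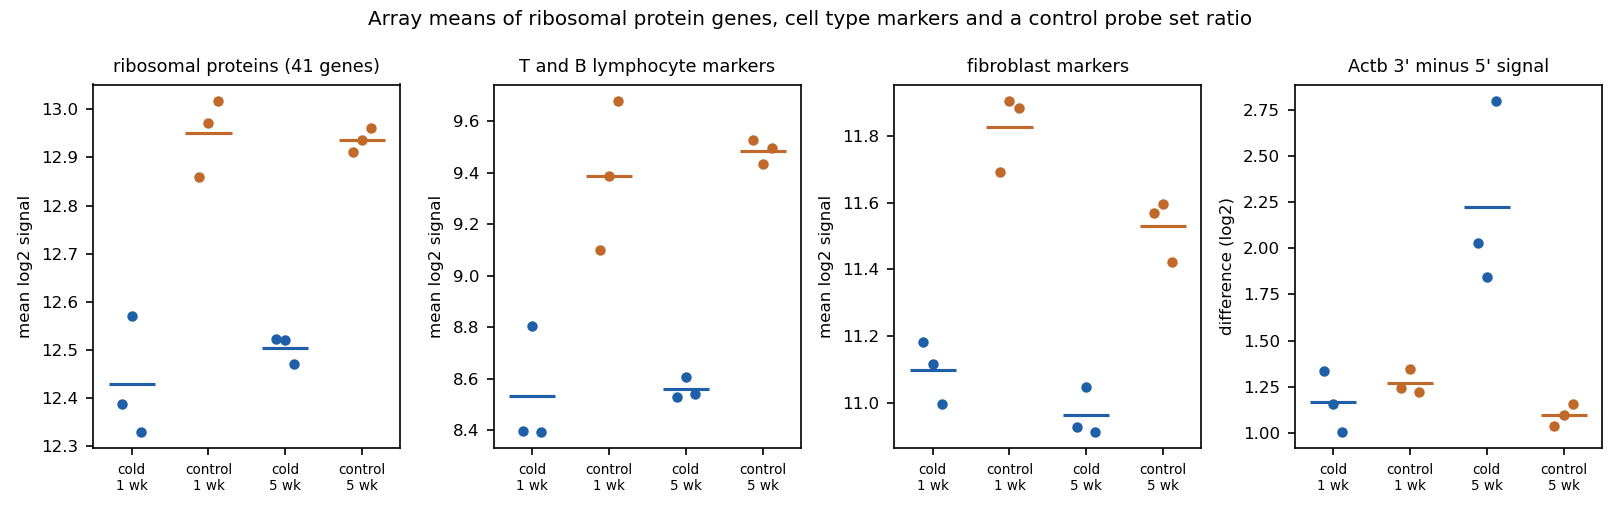
Mean log2 signal on each array of 41 ribosomal proteins, of T and B lymphocyte markers and of fibroblast markers, and the Actb 3′ minus 5′ signal (log2), with cold (blue) left of control (orange) and lines for group means. In the first 3 panels all cold arrays lie below all control arrays; in the last, cold_5wk arrays (1.84 to 2.80) lie above the others.

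Signs of RNA quality also differed between groups. The 3′ minus 5′ signal of the Actb control probe sets, which is larger in degraded RNA, was 2.03, 1.84 and 2.80 on the cold_5wk arrays, against 1.04 to 1.16 on the control_5wk arrays, and 1.01 to 1.33 on the cold_1wk arrays, against 1.22 to 1.35 on the control_1wk arrays. That of Gapdh was -0.09 to 0.34 on the cold_1wk arrays, against 0.90, 3.00 and 3.12 on the control_1wk arrays, and 0.19 to 3.01 on the cold_5wk arrays, against -0.08 to 0.03 on the control_5wk arrays. With the Actb value as a covariate the 5 week median was -0.35, the median SE was 0.20 (0.10 without the covariate), and no member was called (limma; 15 lower and none higher at an unadjusted p under 0.05, and 795 calls over all genes, against 4655 without it). In that fit the 5 week falls of Rps19 (-0.34), Rps15 (-0.32), Rps10 (-0.31), Rpl11 (-0.1) and Rplp2 (-0.1) were smaller than without the covariate. So were those of Rpl8 (-0.54), Rps18 (-0.44), Rplp0 (-0.51) and Rpl41 (-0.29), and the rise of Rpl39l (0.41). The falls of Rpl12 (-1.83), Rps25 (-0.92), Rpl7 (-0.49), Rps6 (-0.4) and Rpl22l1 (-0.38) were larger. With the Gapdh value as a covariate 27 members were lower at 1 week, and 34 were lower and 1 higher at 5 weeks. With the muscle marker mean as a covariate the 5 week count was 9 lower and 1 higher, and with the control_5wk arrays, which correlated with each other at 0.997 to 0.998, counted as 1 sample it was 10 lower.

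The scale of the arrays bears on the counts. Centring every array on the median of the tested genes moved the median of all genes to 0.14 at 1 week and 0.13 at 5 weeks. On that scale 24 members fell and 5 rose at 1 week, and 22 fell and 3 rose at 5 weeks. Rpl39l rose at both times, and Rps2 and Rps27l were among the 5 at 1 week. The 1 week calls lost included Rplp0 (-0.22), Rps19 (-0.29), Rpl13a (-0.18) and Rpl41 (-0.18). The 5 week calls lost included Rplp2 (-0.22), Rpl22l1 (-0.21) and Rps6 (-0.16). Centring shifts the difference of every gene by the same amount. By construction, the members' median relative to that of all genes therefore stayed at -0.41 at 1 week and -0.36 at 5 weeks. Without cold_1wk 2, the array with the high muscle signal, 34 members were lower and 1 higher at 1 week, and without cold_5wk 3, 32 were lower and 2 higher at 5 weeks.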

How the data were processed

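The authors deposited 1 table of log2 signals for 45101 probe sets on 12 arrays; GCRMA is named by the submitters' processing notes, and no source used here gives its settings. Per the labels' protocols, 5 µg of total RNA was labelled with biotin for each array. Array medians over all probe sets ran from 4.79 to 4.89, and the number of arrays limits the precision.

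Control probe sets (64) were left out. Symbols came from the array annotation and were updated through the gene identifier: 34958 probe sets had 1 symbol, 932 several and 9211 none. Probe sets over log2 4 on 3 or more arrays were kept, and the brightest with 1 symbol stood for its gene. Group means over all 12 arrays (4 groups) were fitted with lmFit and eBayes of limma 3.58.1 in R 4.3.3. Tests were 2-sided, with Benjamini-Hochberg adjustment across 12855 genes per contrast, and the procedure was tested on simulated data.

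The members, the gene lists and the tests were chosen with earlier results of these data known. Members named in the text were the 8 largest called rises and falls of each cold effect, the 4 largest of the other contrasts, a fixed set of proteins and paralogues, and members with probe sets called in opposite directions. From each other list the rule took the 2 genes with the smallest adjusted p per cold effect. The text does not name every gene so taken, and it names no endothelial or skeletal muscle marker. Rpl4, Rpl6, Rpl19, Rpl38, Rps19bp1 and Rps15a-ps6, and the probe sets with several gene names, were chosen after their values were seen. Replicate numbers did not pair the arrays: deviations of arrays with the same number correlated between -0.027 and 0.074. Promoters are those of RefSeq.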

Additional observations from a re-analysis of the deposited data

Results flagged for a closer look

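In 4 genes the cold effect differed between the times by the test of the difference itself (limma, adjusted p under 0.05). The cold effect at 5 weeks minus that at 1 week was 0.75 for Rps9, 0.47 for Rpl22, 0.45 for Rps7 and 0.32 for Rps4x (log2), with n = 3 arrays per group. In Rps9 the second bright probe set gave -0.59 for the same difference (SE 0.20, limma over all probe sets, adjusted p = 0.0568). In Rpl22 the other probe sets gave 0.29 and -0.18, in Rps7 the other probe set gave 0.37, and in Rps4x the dim one gave -0.59, none of them called. Among the 12 arrays left out in turn, the call of Rps4x held only without cold_1wk 2.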

How the results depend on the processing

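The count of called members was 33 to 36 at 1 week and 30 to 34 at 5 weeks when each array of the 2 groups compared was left out in turn (35 lower and 2 higher at 1 week without cold_5wk 3, and 36 lower and 2 higher at 5 weeks without cold_1wk 2); for the difference of the cold effects it was 1 to 6 over all 12 arrays, and over the arrays of the groups compared, for 5 weeks against 1 week within the cold 7 to 14, and within the controls 0 to 1 (1 without control_1wk 1). With arrays centred on the median the members' medians were -0.27 at 1 week and -0.23 at 5 weeks, and with the muscle marker mean as a covariate the 5 week median was -0.23. The 5 week count was 0 with the Actb covariate, 10 with the muscle covariate and 10 with control_5wk averaged. The count for the difference of the cold effects was 2 with the mean of all probe sets of a gene, 2 without probe sets ending in _x_at or _s_at, 0 with the Gapdh covariate (3 at an unadjusted p under 0.05), 0 with the Actb covariate (0 at an unadjusted p), 0 with control_5wk averaged (4 at an unadjusted p) and 7 with a trended prior. Within the cold the count was 8 without probe sets ending in _x_at or _s_at, 6 with only the arrays compared, 5 with the Gapdh covariate, 0 with the Actb covariate (3 at an unadjusted p) and 8 with control_5wk averaged. The direction turned at 1 week for Rpl7l1 (0.25) and Rps4x (0.28) with the mean of all probe sets and for Rps4l (-0.02) with the Gapdh covariate; at 5 weeks for Rpl27a (-0.18) with the Actb covariate; in the difference of the cold effects for Rps4x (-0.13) with the mean of all probe sets; and within the cold for Rpl35 (-0.04) without probe sets ending in _x_at or _s_at and Rpl11 (0.03) with the Actb covariate. The cause of these changes was not tested. With the replicate block the count was 36 at 1 week and 33 at 5 weeks. An unfiltered fit, a filter at log2 6, quantile normalization and control probe sets kept did not move the count of either cold effect by over 1.5 times.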
